A study of Homo sapiens with 5 samples.

Results

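The genes described here code for the small ribosomal subunit processome and for the factors that finish the small subunit, 47 gene symbols fixed as a list. They were found as the rows of the count table that carry these symbols, which held for 39 of the 47 among 13638 rows in all. Of the 8 symbols with no row under that name, MPP10 is an alias of MPHOSPH10, which has its own row, and UTP4 and UTP11 were found by transcript under their older symbols CIRH1A and UTP11L. WDR36, DCAF13, IMP3, RRP12 and AATF were not analysed here. CIRH1A and UTP11L are described beside the members and are not in the counts unless stated.

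The libraries are ribosome footprints of HAP1, a near-haploid human cell line that descends from a chronic myeloid leukaemia. Footprints are the stretches of mRNA that ribosomes shield from nuclease. The knockout is of ZCCHC4, the enzyme that the series title names as the writer of N6-methyladenosine on 28S ribosomal RNA, and the knockout cells gave 3 libraries. Wild-type HAP1 cells gave 2 libraries. No treatment is labelled, and the labels do not say how the knockout was made, whether it is a single clone, or whether the libraries of a genotype came from separate cultures, so p-values measure the spread between libraries, which may be technical. A gene's count follows both its mRNA level and its occupancy by ribosomes, and no RNA-seq was used here to separate them.

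The small subunit is assembled in the nucleolus on the nascent pre-ribosomal RNA. The UTP-A, UTP-B and UTP-C complexes, the U3 small nucleolar ribonucleoprotein and the MPP10 complex bind in sequence and form the processome, in which U3 base-pairs with the pre-rRNA and guides the early cuts. Later factors accompany the pre-40S particle to the cytoplasm, where the last cut releases mature 18S rRNA. Most of these factors were first defined in budding yeast, and their genes are described as a class that growing cells express together.

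Knockout libraries held 29191146, 16940732 and 31557573 counts, against 5302160 and 4887380 in wild type, so depth and genotype moved together and cannot be told apart. Median member counts were 3151, 1797 and 3576 in the knockout and 538 and 481 in wild type. Knockout replicate 2 stood apart from replicates 1 and 3: the members' median difference from them was 0.20 and 0.18 on the log2 scale, against 0.04 between replicates 1 and 3 and 0.06 between the wild-type libraries. ZCCHC4 had 105, 55 and 147 counts in the knockout and 93 and 71 in wild type, or 4.08 ± 0.810 CPM (SD, n = 3) against 14.6 ± 1.97 CPM (SD, n = 2), where CPM are counts scaled by library total and TMM factor to a common size. Its log2 fold change was -1.82 ± 0.20 (SE; edgeR quasi-likelihood test, Benjamini-Hochberg adjusted p = 7.27e-05). Of 11 haematopoietic markers, 3 had a row, with KIT at 1.64 CPM in the knockout and 11.3 CPM in wild type, and CD33 and CD34 at no more than 2 counts in any library. BCR, a gene of the parental fusion, had 4.44 and 6.83 CPM in knockout and wild type. The part of these differences in the results below was not tested.

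Promoters of 8 members are printed because they differ in a sequence feature that the members share more often than other genes do. They are RefSeq sequences of GRCh38.p14, 5′ to 3′ on the strand of the gene, 50 bases before to 50 bases after the annotated start, and capitals mark the E-box CACGTG. The first 5 genes rose in the knockout and the last 3 fell.
BYSL (chr6:41921449-41921548, plus strand): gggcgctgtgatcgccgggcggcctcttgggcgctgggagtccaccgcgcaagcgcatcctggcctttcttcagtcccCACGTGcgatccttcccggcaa
PWP2 (chr21:44107349-44107448, plus strand): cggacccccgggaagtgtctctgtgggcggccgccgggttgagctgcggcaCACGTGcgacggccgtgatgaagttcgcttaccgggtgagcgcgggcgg
TSR2 (chrX:54440354-54440453, plus strand): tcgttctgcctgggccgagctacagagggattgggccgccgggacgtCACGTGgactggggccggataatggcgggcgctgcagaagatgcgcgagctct
UTP18 (chr17:51260496-51260595, plus strand): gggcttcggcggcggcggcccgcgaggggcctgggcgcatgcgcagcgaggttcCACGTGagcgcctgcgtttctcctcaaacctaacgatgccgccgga
RRP7A (chr22:42519747-42519846, minus strand): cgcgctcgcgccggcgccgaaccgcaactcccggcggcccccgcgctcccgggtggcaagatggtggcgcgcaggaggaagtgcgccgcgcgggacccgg
WDR43 (chr2:28894617-28894716, plus strand): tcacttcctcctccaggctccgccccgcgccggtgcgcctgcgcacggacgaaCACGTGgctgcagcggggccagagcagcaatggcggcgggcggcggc
UTP20 (chr12:101280055-101280154, plus strand): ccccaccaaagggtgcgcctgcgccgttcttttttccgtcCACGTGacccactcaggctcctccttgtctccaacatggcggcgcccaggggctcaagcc
HEATR1 (chr1:236604467-236604566, minus strand): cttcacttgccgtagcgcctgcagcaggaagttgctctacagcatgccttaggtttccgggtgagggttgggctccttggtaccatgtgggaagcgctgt

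In the RefSeq windows of 250 bases before to 50 after the start, which were available for 36 members, CACGTG (a palindrome, so both strands are read at once) occurred in 17, or 47.2%. It occurred in 9.73% of the 10677 promoters of genes in the table and in 7.44% of all 27305 promoters. Its places were close to the start: 15 of the 36 members, or 41.7%, had it beginning between 20 bases before and 50 bases after, against 2.17% of the table's genes. That narrower window was chosen after the places were seen. Members with the E-box moved in both directions. In the narrower window it was present in 6 of the 17 members that rose, in 2 of the 7 that fell and had a promoter, and in 6 of the 11 that did not pass the test and had one. RRP7A and HEATR1, which have no E-box in the full window, moved in opposite directions, as did BYSL and UTP20, which have one. Of the other motifs searched on both strands, CTTCCGG occurred in 36.1% of member promoters and 17.6% of the table's, and TCGCGAGA in 13.9% and 2.15%. A match of letters is a description and does not show that a factor binds there.

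**Figure D1:**
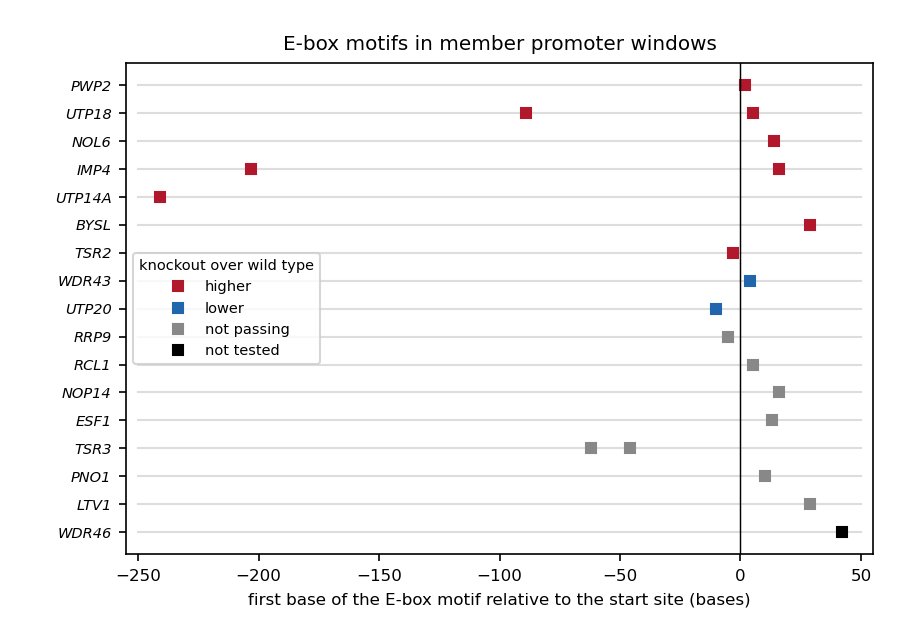
Place of each E-box CACGTG in the promoter windows of the 17 members that hold one, as the distance of its first base from the annotated start in bases, a member to a line; colours give the footprint call, knockout over wild type. Most squares lie near the start, for members that rose, fell or did not pass alike.

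Footprints of the small-subunit factors moved in both directions in ZCCHC4 knockout cells, with more members higher than lower under TMM scaling. Of 38 members that could be tested, 17 rose (44.7%), 8 fell (21.1%) and 13 did not pass the test. Over all 11205 genes tested, 30.2% rose and 29.8% fell. The members' median log2 fold change was 0.23, and that of all genes was 0.02; the members' median was 0.10 once trends with GC content, coding length and level were subtracted. Changes were small: 2 members, BYSL and RRP7A, rose at least 2-fold, where 10.0% of all genes did, and 0 fell at least 2-fold, where 13.1% of all genes did. Among the 25 that passed, 17 changed less than 1.5-fold, against 2050 of the 6721 that passed among all genes. Knockout and wild-type libraries did not overlap for 30 of the 38 members (78.9%), against 76.4% of all genes. WDR46, a scaffold protein of the processome, was the member left untested, with 1, 0 and 1 counts in the knockout and 0 and 0 in wild type. The transcript of its row was not found in the GENCODE 29 annotation used, so these counts are not read as the level of the gene.

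The balance of rises and falls depended on the scaling. With library totals in place of TMM factors, 11 members rose and 13 fell, while 21.3% of all genes rose and 40.7% fell and the median of all genes moved to -0.20. The members' median then was 0.015 and lay 0.22 above that of all genes, as with TMM scaling. A change of scaling shifts all genes by nearly the same amount, so this distance could hardly have changed. The distance was 0.16 when genes needed a mean count of 50, and 0.29 with DESeq2. DESeq2 was run without the filter, on 13638 rows and 39 members, WDR46 among them, and the median of all genes was -0.07. The set of genes thus differed as well as the method. With upper quartile scaling, 13 members rose and 10 fell, against 27.1% and 32.6% of all genes. When the near-identical libraries of each genotype were summed, which leaves 3 libraries, 9 members rose (23.7%) and 3 fell (7.89%), against 20.3% and 20.5% of all genes. That fit had a lone wild-type library, so spread was measured between the knockout libraries only and was assumed for wild type. Calls lost there may follow from the missing wild-type replicate. The calls lost were those of WDR43, NOL11, UTP18, UTP6, WDR3, NOL6, BMS1, UTP14A, ABT1, UTP20, NGDN, TSR1 and NOB1. Directions below are therefore relative to the other genes of the same libraries. Within a library, ratios between members do not depend on the scaling. They are given for a few pairs within a group, all chosen after their values were seen, and carry no test.

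**Figure D2:**
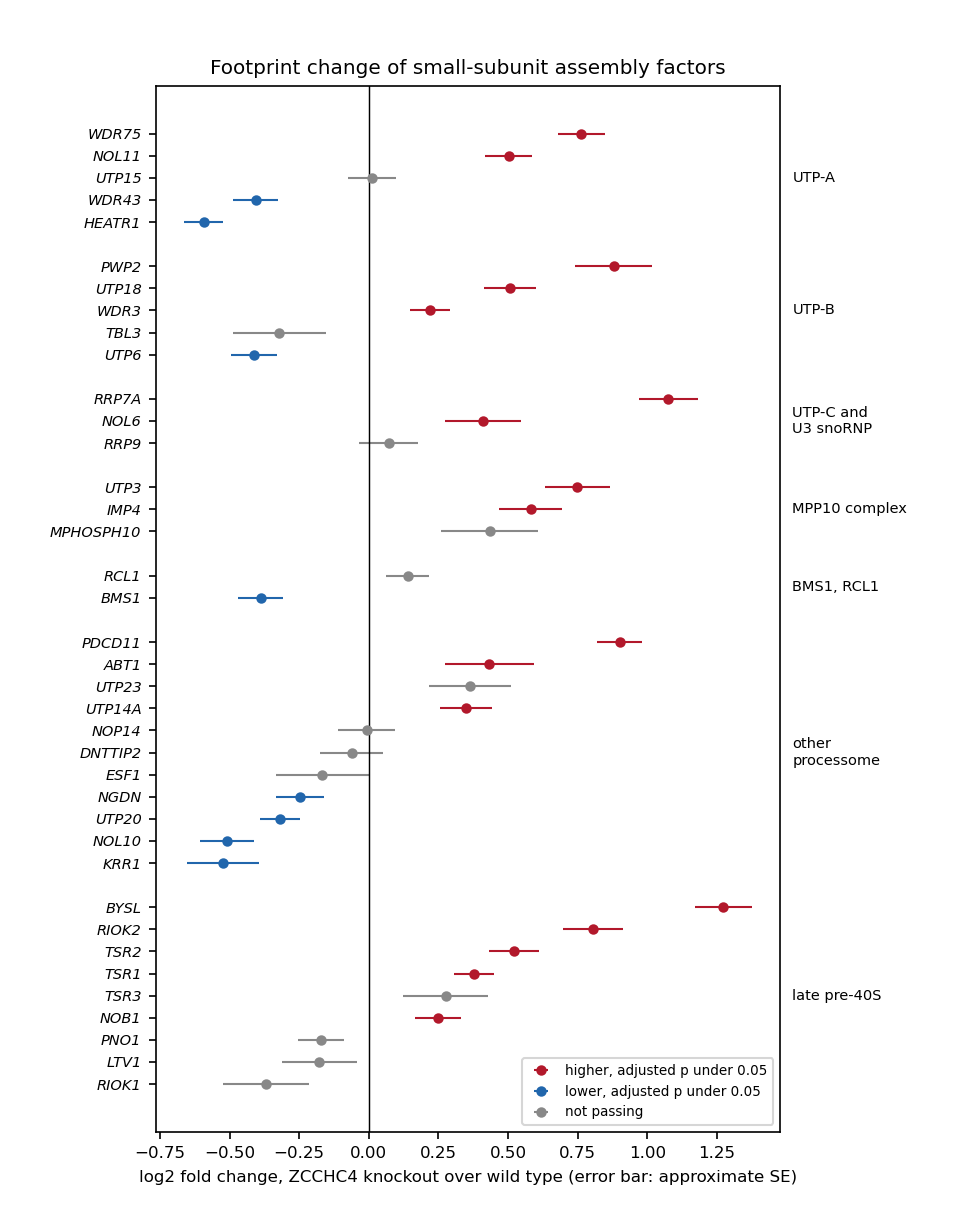
Log2 fold change of footprints, knockout over wild type, for each of the 38 tested members grouped by complex; bars are approximate SEs and colours give the edgeR call. The members run from -0.59 (HEATR1) to 1.27 (BYSL), and the UTP-A and UTP-B complexes hold passing members on both sides of 0.

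UTP-A is the complex that binds the start of the pre-rRNA and, in human cells, is also linked to its transcription. It was split: of 5 tested subunits, WDR75 and NOL11 rose, HEATR1 and WDR43 fell, and UTP15 did not pass. WDR75, a WD-repeat subunit (chromosome 2, 189441433 to 189475565, 21 exons in GENCODE 29), had 155, 141 and 150 CPM in the knockout and 85.7 and 89.8 CPM in wild type. Every knockout library was above both wild-type libraries, and the log2 fold change was 0.76 ± 0.08 (SE; edgeR quasi-likelihood adjusted p = 7.08e-05). HEATR1, the large helical-repeat subunit (chromosome 1, 236549005 to 236604504, 45 exons), had 195, 186 and 186 CPM in the knockout and 280 and 290 CPM in wild type. All knockout libraries were lower, and HEATR1 fell by 0.59 ± 0.07 on the log2 scale (edgeR adjusted p = 0.000102), the deepest fall among the members. WDR43 had 245, 212 and 237 CPM in the knockout and 307 and 306 CPM in wild type, without overlap. Its log2 fold change was -0.41 ± 0.08 (edgeR adjusted p = 0.00206). NOL11, a subunit found in animals, had a log2 fold change of 0.50, and UTP15 of 0.01 (edgeR adjusted p = 0.000821 and 0.918). With near-identical libraries summed, WDR43 and NOL11 missed the threshold (edgeR adjusted p = 0.0777 and 0.0548). CIRH1A, the UTP4 subunit mutated in North American Indian childhood cirrhosis, had 188, 203 and 185 CPM in the knockout and 221 and 212 CPM in wild type, which did not overlap but did not pass (-0.17, edgeR adjusted p = 0.0803).

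The opposite moves inside UTP-A can be read within each library. Per kilobase of coding sequence, the ratio of WDR75 to HEATR1 was 2.05, 1.96 and 2.09 in the knockout and 0.791 and 0.799 in wild type. The ratio of NOL11 to WDR43 was 1.24, 1.22 and 1.20 in the knockout and 0.653 and 0.648 in wild type. Both orders were thus turned round between the genotypes in every library. These pairs were chosen after their values were seen and carry no test. Summed over its 5 tested subunits, CIRH1A not included, UTP-A stood at 940 ± 54.0 CPM in the knockout (SD, n = 3). In wild type the sum was 961 ± 10.1 CPM (SD, n = 2), a ratio of 0.978. Unlike the ratios within libraries, this ratio holds under TMM scaling and depends on the scaling.

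UTP-B joins after UTP-A and holds the base of the processome. PWP2, UTP18 and WDR3 rose, UTP6 fell and TBL3 did not pass. PWP2, a WD-repeat subunit (chromosome 21, 44107290 to 44131181), had 107, 138 and 104.5 CPM in the knockout and 66.8 and 59.6 CPM in wild type. The groups did not overlap, and the log2 fold change was 0.88 ± 0.14 (edgeR adjusted p = 0.000533). UTP18 had 204, 175 and 197 CPM in the knockout and 129 and 141 CPM in wild type, all knockout libraries being higher, with a log2 fold change of 0.51 ± 0.09 (edgeR adjusted p = 0.00138). UTP6, a repeat protein at the core of UTP-B, had 135, 125 and 135 CPM in the knockout and 168 and 183 CPM in wild type. It was lower in each knockout library and fell by 0.41 ± 0.08 on the log2 scale (edgeR adjusted p = 0.00206). With near-identical libraries summed, UTP18 and UTP6 missed the threshold (edgeR adjusted p = 0.0649 and 0.103). The ratio of PWP2 to UTP6 per kilobase was 0.514, 0.718 and 0.502 in the knockout and 0.258 and 0.211 in wild type. WDR3 had a log2 fold change of 0.22 (edgeR adjusted p = 0.0249), but its call was lost in 10 of the 14 alternatives run. These included omission of knockout replicate 1 or 3 or of either wild-type library, DESeq2 and upper quartile scaling. Library totals also lost it, with a log2 fold change of 4.1e-05. TBL3 had 45.4, 64.2 and 45.2 CPM in the knockout and 69.5 and 58.6 CPM in wild type. Knockout replicate 2 lay inside the wild-type range, and without it TBL3 passed at -0.50 (edgeR adjusted p = 1.01e-08). The libraries then left were close to each other within each genotype, so that p-value may measure technical spread. With near-identical libraries summed, the log2 fold change of TBL3 was -0.23. It passed as a fall with library totals (-0.54, edgeR adjusted p = 0.023).

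**Figure D3:**
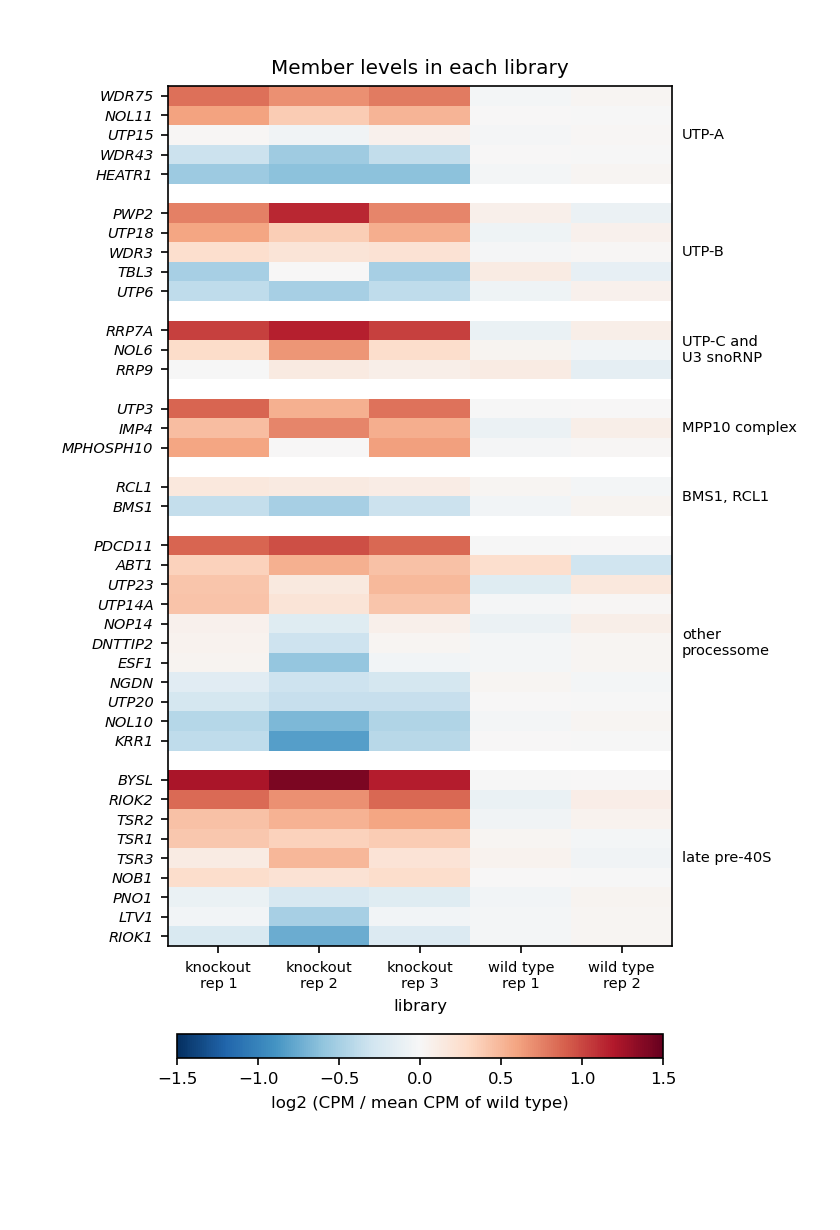
Level of each of the 38 tested members in each library as log2 of its CPM over its mean CPM in wild type, with knockout libraries left of wild-type libraries. Red is above and blue below the wild-type mean; knockout replicate 2 is paler or deeper than replicates 1 and 3 for several members, among them MPHOSPH10 and TBL3.

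UTP-C and the U3 particle had 3 tested members, of which RRP7A and NOL6 rose. RRP7A (chromosome 22, 42509968 to 42519802), a UTP-C subunit, had 69.0, 76.3 and 69.1 CPM in the knockout and 31.7 and 36.0 CPM in wild type. The knockout libraries were all above the wild-type ones, and the rise was 2.11-fold (log2 fold change 1.08 ± 0.11, edgeR adjusted p = 3.58e-05). GENCODE 29 names a pseudogene of RRP7A, and the treatment of reads that match both is not given, so its level is less certain. NOL6, its UTP-C partner, had 82.6, 108 and 81.7 CPM in the knockout and 70.0 and 66.5 CPM in wild type, with a log2 fold change of 0.41 (edgeR adjusted p = 0.0275). That call was lost in 7 of the 14 alternatives run. Among these were upper quartile scaling and library totals (edgeR adjusted p = 0.0679 and 0.265) and limma-voom (limma adjusted p = 0.054). Omission of wild-type replicate 1 or 2 also lost it, at log2 fold changes of 0.45 and 0.37. The ratio of RRP7A to NOL6 per kilobase was 3.42, 2.89 and 3.46 in the knockout and 1.85 and 2.22 in wild type. RRP9, a protein specific to the U3 particle, had a log2 fold change of 0.07 (edgeR adjusted p = 0.577) and overlapping libraries.

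The MPP10 complex, which sits on the U3 and pre-rRNA duplexes, had the highest median of the groups at 0.58. UTP3, known in yeast as Sas10, had 139, 110 and 134 CPM in the knockout and 75.6 and 76.4 CPM in wild type. IMP4, an RNA-binding subunit, had 71.3, 85.5 and 75.0 CPM in the knockout and 48.5 and 54.7 CPM in wild type. Both were higher in every knockout library, with log2 fold changes of 0.75 ± 0.12 and 0.58 ± 0.11 (edgeR adjusted p = 0.000499 and 0.00182). MPHOSPH10, the subunit that names the complex, had 114, 75.4 and 115 CPM in the knockout and 74.2 and 76.5 CPM in wild type. Knockout replicate 2 fell within the wild-type range and the gene did not pass (0.43, edgeR adjusted p = 0.0574), while without that library it passed at 0.60 (adjusted p = 2.57e-14). That small p-value rests on libraries close to each other within each genotype and may measure technical spread. The log2 fold change was 0.35 with near-identical libraries summed.

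The GTPase BMS1 and its partner RCL1 act together in the processome and had unlike values. BMS1 had 191, 174 and 196 CPM in the knockout and 239 and 251 CPM in wild type. It was lower in all knockout libraries and fell by 0.39 ± 0.08 on the log2 scale (edgeR adjusted p = 0.00255). GENCODE 29 names 17 pseudogenes of BMS1, so its counts are uncertain, and its call was lost with near-identical libraries summed (adjusted p = 0.107). RCL1 had 137, 135 and 132 CPM in the knockout and 124 and 120 CPM in wild type, which did not overlap but did not pass (0.14, edgeR adjusted p = 0.143).

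The other processome factors had 11 tested members, 3 of which rose (27.3%) and 4 of which fell (36.4%), shares near those of all genes. PDCD11 (chromosome 10, 103396648 to 103446292), whose yeast counterpart Rrp5 serves both subunits, had 190, 204 and 188 CPM in the knockout and 103 and 104 CPM in wild type. Its libraries were well separated, with a log2 fold change of 0.90 ± 0.08 (edgeR adjusted p = 1.91e-05). UTP14A, whose yeast counterpart activates a helicase of the processome, and ABT1, counterpart of yeast Esf2, rose by less, with log2 fold changes of 0.35 and 0.43 (edgeR adjusted p = 0.0104 and 0.041). Their calls were not firm: without wild-type replicate 2, UTP14A had an adjusted p of 0.0773 and ABT1 of 0.383. UTP14A also lost the call without wild-type replicate 1 (0.1) and ABT1 without knockout replicate 3 (0.0693). A pseudogene of ABT1 is also named, so its counts are uncertain. UTP14C, a retrocopy of UTP14A outside the list, had 5.33 CPM in the knockout and 10.1 CPM in wild type, and reads of the copies may have been shared.

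The falls in this group were KRR1, NOL10, UTP20 and NGDN. KRR1, a KH-domain protein (chromosome 12, 75490861 to 75511621), had 110, 80.6 and 107 CPM in the knockout and 143 and 142 CPM in wild type. NOL10, known in yeast as Enp2 (chromosome 2, 10571655 to 10689967), had 106, 89.0 and 104 CPM in the knockout and 139 and 145 CPM in wild type. GENCODE 29 names a pseudogene of KRR1, which leaves its level less certain. Each lay below both wild-type libraries throughout, with log2 fold changes of -0.52 ± 0.13 and -0.51 ± 0.10 (edgeR adjusted p = 0.00652 and 0.00157), although KRR1 lost its call without wild-type replicate 1 or 2 (adjusted p = 0.0606 and 0.0556). UTP20, a very large helical-repeat protein, had 184, 173 and 173 CPM in the knockout and 221 and 219 CPM in wild type. NGDN, counterpart of yeast Lcp5, had 80.9, 73.2 and 75.5 CPM in the knockout and 92.8 and 88.9 CPM in wild type. Both were lower in all knockout libraries, at -0.32 and -0.25 (edgeR adjusted p = 0.00442 and 0.0347), and both lost the call without either wild-type library, NGDN also without knockout replicate 3. NOP14, DNTTIP2, ESF1 and UTP23 did not pass, at -0.01, -0.06, -0.17 and 0.36. UTP11L, the UTP11 factor, had a log2 fold change of -0.14 (edgeR adjusted p = 0.395).

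The factors of the late pre-40S particle had 9 tested members, of which 5 rose and 0 fell under TMM scaling, where 30.2% of all genes rose and 29.8% fell. This split depended on the settings: 4 rose and 2 fell with upper quartile scaling, and 3 rose and 3 fell with library totals. With TMM scaling kept, 5 rose and 2 fell without knockout replicate 2. Omission of knockout replicate 1 or 3 gave 4 rises and 1 fall. The split stayed at 5 and 0 with limma-voom, with RLE in place of TMM factors, and without a filter on low counts. It was 4 and 1 with DESeq2 and with the replicate number as a block. When genes needed a mean count of 50, it was 4 and 2. BYSL (chromosome 6, 41921188 to 41933046, 7 exons), counterpart of yeast Enp1 and a factor that leaves the nucleus with the particle, had 132, 151 and 128 CPM in the knockout and 56.6 and 56.9 CPM in wild type. The groups were far apart, and its 2.42-fold rise was the largest among the members (log2 fold change 1.27 ± 0.10, edgeR adjusted p = 1.03e-05). RIOK2, an atypical kinase of the cytoplasmic particle, had 82.6, 73.5 and 83.3 CPM in the knockout and 42.6 and 48.9 CPM in wild type. TSR2, which in yeast delivers the ribosomal protein eS26, had 113, 120 and 126 CPM in the knockout and 80.2 and 86.8 CPM in wild type. Both were higher in every knockout library, with log2 fold changes of 0.80 ± 0.11 and 0.52 ± 0.09 (edgeR adjusted p = 0.000201 and 0.000938).

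TSR1, a GTPase-like protein that blocks early joining of subunits, rose with a log2 fold change of 0.38 (edgeR adjusted p = 0.00163), but not with library totals (0.16, adjusted p = 0.0713). NOB1, the nuclease that makes the last cut of 18S rRNA, rose by 0.25 (adjusted p = 0.027), a call lost without knockout replicate 1 or 3 or either wild-type library and with upper quartile scaling or library totals. PNO1, the partner of NOB1, had 128, 116 and 121 CPM in the knockout and 134 and 141 CPM in wild type. It did not overlap between genotypes but did not pass (-0.17, edgeR adjusted p = 0.1). LTV1 had a log2 fold change of -0.18 and RIOK1, the kinase that acts after RIOK2, of -0.37, neither passing (edgeR adjusted p = 0.285 and 0.0653), nor did the RNA-modifying enzyme TSR3 at 0.28. With library totals, PNO1, LTV1 and RIOK1 passed as falls (edgeR adjusted p = 0.00228, 0.0249 and 0.00751), and RIOK1 passed in 8 of the 14 alternatives run. GENCODE 29 names a pseudogene of LTV1, so its counts are uncertain. The kinases differed within libraries: RIOK2 to RIOK1 per kilobase was 1.16, 1.48 and 1.16 in the knockout and 0.521 and 0.577 in wild type, a pair chosen after values were seen.

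Levels per kilobase of coding sequence, the scale on which genes can be set side by side, ran in the knockout from 21.1 CPM per kilobase for UTP20 to 209 for TSR2, and in wild type from 18.5 for PDCD11 to 182 for PNO1. Subunits of a complex did not have equal levels. In UTP-A they spanned 4.73-fold in the knockout (HEATR1 lowest, NOL11 highest) and 4.28-fold in wild type (WDR75 lowest, WDR43 highest). In UTP-B they spanned 5.41-fold in the knockout, between TBL3 and UTP18, and 4.28-fold in wild type, between PWP2 and UTP6. Summed over all members under TMM scaling, footprints came to 4819 ± 209 CPM in the knockout (SD, n = 3) and 4489 ± 65.9 CPM in wild type (SD, n = 2). The ratio was 1.07, and its direction depended on the scaling. As a share of library totals, members held 0.465%, 0.437% and 0.458% of counts in the knockout and 0.486% and 0.497% in wild type.

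**Figure D4:**
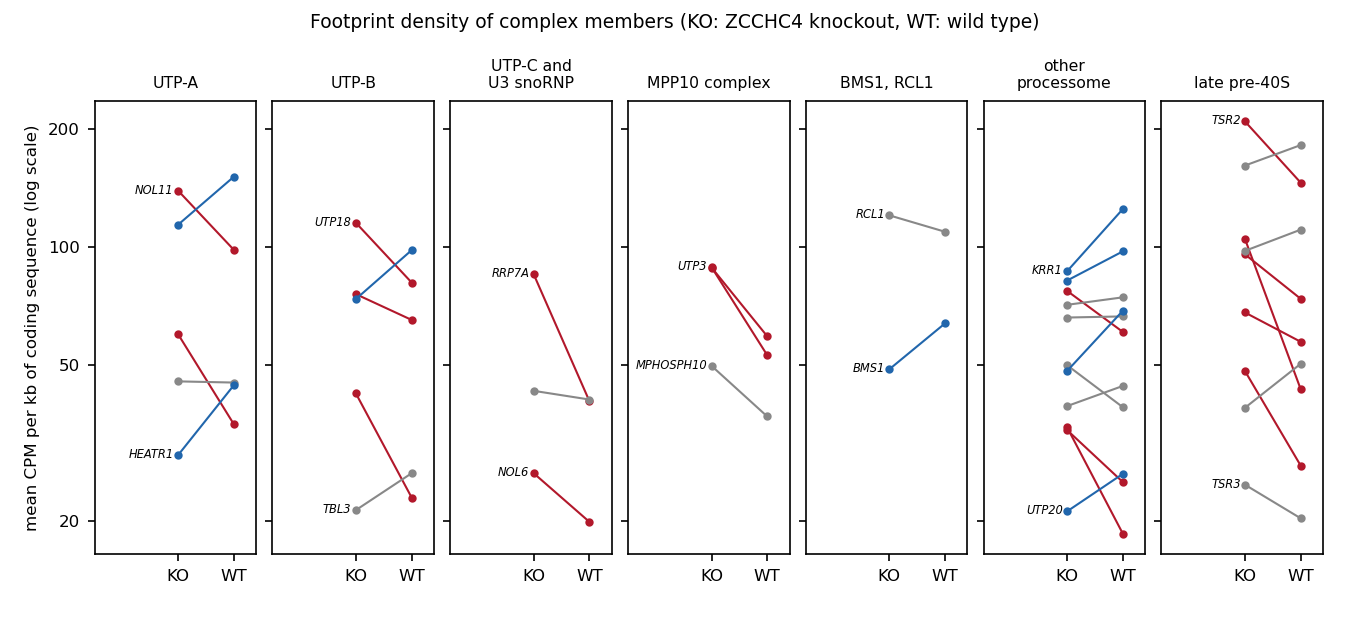
Mean level of each tested member in CPM per kilobase of coding sequence on a log axis, knockout (KO) left and wild type (WT) right, a line per member and a panel per complex; red lines are members that rose, blue ones fell and grey ones did not pass. Lines cross in most panels, UTP-A and UTP-B among them, and levels spread several-fold within each genotype.

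Of 27 other small-subunit factors tested, 10 rose (37.0%) and 7 fell (25.9%), shares near the 30.2% and 29.8% of all genes. The remaining 10 missed the threshold, and the median log2 fold change was 0.16. EMG1, a methyltransferase of 18S rRNA, averaged 58.0 CPM in the knockout and 18.2 CPM in wild type, a log2 fold change of 1.67 ± 0.11. RBM19 and RRP36 were next, with log2 fold changes of 1.07 and 0.98. NOL7 had a log2 fold change of -0.77, and the 18S methyltransferases WBSCR22 (BUD23) and DIMT1 of -0.72 and -0.63, all of these past the edgeR threshold. Factors of the large subunit gave 23 rises (46.0%) and 10 falls among 50 tested, with a median of 0.24, close to that of the small-subunit members.

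Base composition was compared with these results. After a spline fit on GC content, coding length and level together was subtracted, the members' median log2 fold change was 0.10, against 0.23 before; this gives no test, and the 3 properties were not fitted apart. The fit was made over all genes tested and does not follow the members' own pattern. Members that rose had a median GC content of 51.1% in the coding sequence, those that fell 42.3% and those that did not pass 41.7%. Over all genes the order was the other way, with 47.5% for those that rose and 50.4% for those that fell. Across the 38 members, Spearman's correlation of GC content with log2 fold change was 0.32, whereas over 11160 genes it was -0.10. These are descriptions across genes that share libraries, and genes are not independent replicates. Knockout replicate 2, divided by the mean of replicates 1 and 3, also followed GC content, with Spearman's correlations of 0.69 over the members and 0.62 over 11077 genes. Its ratio ran from 0.659 for MPHOSPH10 to 1.42 for TBL3. Without that library, 25 members kept their calls, 0 were lost and 6 were gained, while the shares of all genes also went up, to 37.3% higher and 35.9% lower. The gained members were MPHOSPH10, UTP23 and RCL1 as rises, and TBL3, PNO1 and RIOK1 as falls. RIOK1 also passed without knockout replicate 1 or 3. On the chromosomes, Spearman's correlation of a member with the median of genes within 1 Mb was 0.12 over 38 members, and 20 members had the opposite sign to their neighbours.

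**Figure D5:**
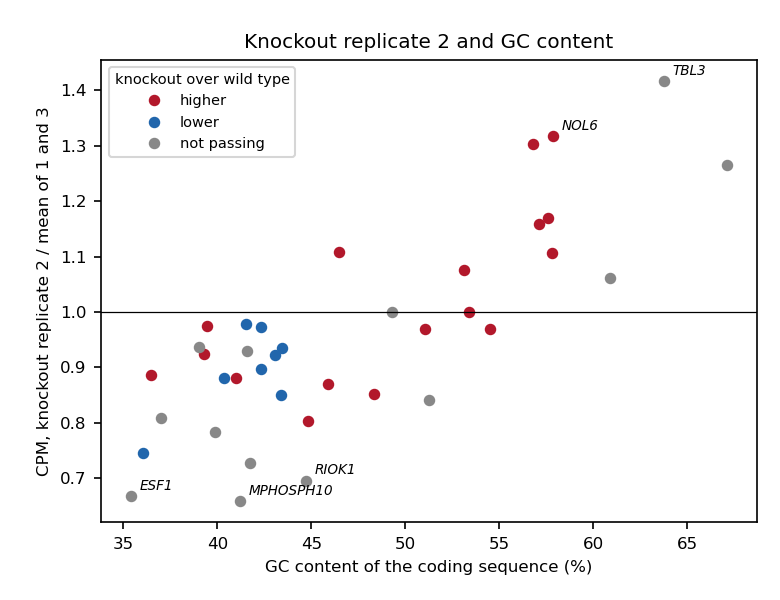
CPM of each of the 38 tested members in knockout replicate 2 divided by the mean of knockout replicates 1 and 3, against GC content of the coding sequence in percent; colours give the edgeR call and the line marks a ratio of 1. The ratio tends to be higher at higher GC content, from 0.659 for MPHOSPH10 to 1.42 for TBL3.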

How the data were processed

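Ribosome footprints of HAP1 cells were analysed in 5 libraries, 3 from ZCCHC4 knockout cells and 2 from wild type, grouped by the labels' titles and genotype. Per the file headers and values, the deposited table holds raw whole-number counts for each transcript and its symbol. Its header is shifted by 1 cell, so columns were assigned by name after that shift, and 0 columns belonged to other samples. The submitters' processing notes name Bowtie, with no version, and hg38. The counter, annotation, trimming, duplicate and rRNA removal, strand and treatment of reads with several matches were not given in the sources used here. The labels' molecule field names polyA RNA although their protocol describes footprints.

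The test was edgeR's quasi-likelihood test (glmQLFTest, edgeR 4.0.16, R 4.3.3) of genotype alone over all 5 libraries, after TMM scaling and filtering by filterByExpr (minimum count 10). Calls had a Benjamini-Hochberg adjusted p under 0.05 over 11205 genes. The filter left out 2433 rows. SEs were taken as the absolute log2 fold change over the root of F. A count of 1 equals 0.0339 to 0.0619 CPM in the knockout and 0.172 to 0.187 CPM in wild type. DESeq2 1.42.0, limma 3.58.1 (voom), other scalings and filters, omission of each library and summing of near-identical libraries were alternatives. The procedure was tested on simulated data. Genes were placed by GENCODE 29 on GRCh38, and promoters are from RefSeq.

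Members passing the test without overlap between genotypes were given per library, up to the 10 largest rises and 10 largest falls; of the other small-subunit factors, the 3 largest of each. Members and lists were chosen with earlier results of these data known. The wild-type libraries differed little beyond counting noise (chi-square per degree of freedom 1.14) and were kept as 2 samples, as labelled.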

Additional observations from a re-analysis of the deposited data

How the results depend on the processing

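No member reversed in a passing call under 14 alternatives, and 11 of the 25 called members kept the call in all of them: BYSL, RRP7A, PDCD11, PWP2, RIOK2, WDR75, UTP3, IMP4, TSR2, HEATR1 and NOL10. Of the 17 rises and 8 falls, library totals without scaling factors left 11 rises and 13 falls, and summing near-identical libraries left 9 rises and 3 falls, against 20.3% and 20.5% of all genes. With library totals, 21.3% of all genes rose and 40.7% fell. Omitting each knockout library in turn gave 14 to 20 rises and 8 to 11 falls. The shares of all genes moved as well, from 27.4% to 37.3% higher and from 27.3% to 35.9% lower. The members' median was 0.20 to 0.23 over all omissions, those of wild-type libraries included. There were 5 falls without either wild-type library, where the lone wild-type library is assumed to vary like the others. The members' median of 0.23 was 0.17 with upper quartile scaling and 0.015 with library totals. Without a filter it was 0.29, with WDR46 counted among the members. It was 0.16 when genes needed a mean count of 50, and 0.10 after a spline fit removed the trends with GC content, coding length and level. It was 0.18 with CIRH1A and UTP11L counted, a choice made after seeing the data. Same-numbered libraries did not deviate together (correlations -0.07 and -0.07), so the numbers were not taken as pairs. With the replicate number as a block, 14 members rose and 7 fell, against 27.4% and 27.0% of all genes, with a median of 0.23. No other count of members moved by over 1.5 times. With 2 wild-type libraries that were shallower than the knockout ones, wild-type counting noise limits the smallest changes.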
